A study of Mus musculus with 4 samples.

Results

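Mitosis and cytokinesis genes were followed across 4 arrays of small intestinal epithelium from mice lacking AP-1B and from heterozygous mice. The group was a fixed list of 40 genes for mitotic cyclins and kinases, kinetochore, spindle and cytokinesis proteins. For each, the probe set named for that gene alone with the highest mean over the 4 arrays was taken. Such a probe set was found for 39 of the 40, and all 39 passed the filter on low values (a mean signal of at least 0.983 over the arrays, where each array's median is near 1), among 11326 genes that did. No value is given for Ccnb1.

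The mice were healthy C57BL/6J adults of 10 weeks, housed free of specific pathogens. The labels named 2 genotypes, AP-1B+/- (heterozygous) and AP-1B-/- (knockout), with 2 arrays each, and every animal carried at least 1 deleted copy, since no wild-type array was analysed here. Epithelial cells were released from the dissected small intestine with EDTA and collected by hand with a needle under a stereomicroscope, and biotin-labelled total RNA was hybridised to one-colour arrays. Neither the extent of the deletion nor the number of animals behind an array is stated in the labels, so p-values rest on the spread between these arrays alone.

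In the small intestine, cells divide in the crypts, where stem cells and their transit-amplifying daughters lie, and stop dividing as they move onto the villus and become absorptive or secretory cells. Mitotic genes are transcribed mainly in late S phase and G2, so their messages mark dividing cells. Entry into mitosis is driven by Cdk1 with its A- and B-type cyclins, chromosome attachment is monitored by the spindle checkpoint, and anaphase starts when the anaphase promoting complex with Cdc20 marks cyclin B and securin for destruction. Many of these genes share a promoter element, the cell cycle genes homology region (CHR), bound by the DREAM and MuvB complexes, often beside CCAAT boxes bound by NF-Y.

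Those promoter elements are described here for the members. Their relation to the levels on the arrays, given further on, was not tested. A promoter window, from 250 bases before to 50 after the start, was held for 33 of the 40 genes in the RefSeq table of build GRCm38.p6. Ccna2, Cdc25c, Aurkb, Incenp, Tpx2, Stmn1 and Kif20a are named only. A CHR match, searched as TTTGAA or TTCGAA on both strands, lay in the window of 26 of the 33 (78.8%), against 21.7% of 27025 genes with a window; a gene with several windows counted once if any held it. At least 2 CCAAT boxes, searched as CCAAT on both strands, were found in 17 of the 33 (51.5%), against 13.3% of all. Both occurred in 16 (48.5%), against 2.68% of all. The 6 members with both and the highest mean signal are printed 5′ to 3′ on the strand of the gene, with matches in capitals, where neighbouring boxes can join or share bases. The windows were chr8:57511593-57511892 (plus strand) for Hmgb2, chr4:118437294-118437593 (minus) for Cdc20, chr2:164769679-164769978 (plus) for Ube2c, chr11:99024140-99024439 (minus) for Top2a, chr7:135716330-135716629 (minus) for Mki67 and chr9:70421505-70421804 (minus) for Ccnb2.
Hmgb2: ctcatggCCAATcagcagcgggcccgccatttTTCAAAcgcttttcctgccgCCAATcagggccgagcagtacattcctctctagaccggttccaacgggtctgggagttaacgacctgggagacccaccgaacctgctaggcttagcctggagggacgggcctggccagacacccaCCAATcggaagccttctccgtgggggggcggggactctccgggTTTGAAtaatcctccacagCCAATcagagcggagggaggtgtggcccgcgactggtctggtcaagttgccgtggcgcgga
Cdc20: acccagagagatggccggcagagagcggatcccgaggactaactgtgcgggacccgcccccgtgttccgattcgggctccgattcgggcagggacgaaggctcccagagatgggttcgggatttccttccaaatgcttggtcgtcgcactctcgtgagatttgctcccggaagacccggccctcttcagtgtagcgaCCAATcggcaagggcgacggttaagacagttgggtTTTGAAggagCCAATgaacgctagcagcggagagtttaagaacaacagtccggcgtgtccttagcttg
Ube2c: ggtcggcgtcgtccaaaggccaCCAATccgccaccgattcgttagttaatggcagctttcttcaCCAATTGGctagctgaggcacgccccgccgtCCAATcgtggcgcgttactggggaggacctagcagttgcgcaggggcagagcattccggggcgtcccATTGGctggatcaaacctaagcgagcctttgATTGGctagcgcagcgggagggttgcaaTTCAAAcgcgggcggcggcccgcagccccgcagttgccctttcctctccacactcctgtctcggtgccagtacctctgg
Top2a: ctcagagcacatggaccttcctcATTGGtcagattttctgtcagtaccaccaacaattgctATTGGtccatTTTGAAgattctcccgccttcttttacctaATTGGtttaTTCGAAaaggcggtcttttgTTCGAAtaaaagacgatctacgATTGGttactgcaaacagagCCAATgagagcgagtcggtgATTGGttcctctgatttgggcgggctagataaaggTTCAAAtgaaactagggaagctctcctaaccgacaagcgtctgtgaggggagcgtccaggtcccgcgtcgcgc
Mki67: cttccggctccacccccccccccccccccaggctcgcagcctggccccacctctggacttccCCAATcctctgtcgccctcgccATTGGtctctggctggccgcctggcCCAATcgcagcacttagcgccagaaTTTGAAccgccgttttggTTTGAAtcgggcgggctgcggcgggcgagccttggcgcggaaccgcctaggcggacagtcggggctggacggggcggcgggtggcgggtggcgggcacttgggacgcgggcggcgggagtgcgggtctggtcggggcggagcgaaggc
Ccnb2: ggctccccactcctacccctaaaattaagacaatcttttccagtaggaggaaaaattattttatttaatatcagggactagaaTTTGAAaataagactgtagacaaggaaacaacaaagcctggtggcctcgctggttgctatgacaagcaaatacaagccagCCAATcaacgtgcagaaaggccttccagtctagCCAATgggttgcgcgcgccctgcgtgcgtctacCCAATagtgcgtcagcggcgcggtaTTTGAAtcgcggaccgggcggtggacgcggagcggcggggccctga
In 24 members a CHR match began within 50 bases of the start, as at position -18 in Cdc20, -29 in Ube2c, -23 in Top2a, -30 in Hmgb2 and 4 in Ccnb2, counted from 0 at the first transcribed base. Mki67 had matches at -116 and -98. The share of all genes with a match within 50 bases of the start was not taken. In other gene lists, 42 of 63 other mitosis genes (66.7%) and 8 of 39 DNA replication genes (20.5%) held the element; the difference was not tested. Members with a CHR match had a median ratio of 2.997 between the arrays labelled knockout 1 and heterozygous 1, and the 6 measured members without a match in their window had 2.95. A match is a description of letters and shows no binding.

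The arrays were examined first. Values for the 4 arrays are given throughout in the order heterozygous 1, heterozygous 2, knockout 1, knockout 2, as the arrays are labelled. Each array had a median between 0.996 and 0.998, and the 75th percentile ran from 4.13 (heterozygous 1) and 4.27 (knockout 2) to 5.54 (heterozygous 2) and 5.57 (knockout 1). Bright genes thus stood higher on the last pair, and the median gene was 1.35 times higher on knockout 1 than on heterozygous 1. Ap1m2, the gene of the AP-1B subunit mu1B, had signals of 19.9, 4.33, 2.49 and 22.3. On heterozygous 2 and knockout 2 the signal contradicted the label, so every direction given here follows the labels only. Xist, transcribed from the inactive X chromosome of female cells, had 0.349, 30.3, 0.070 and 60.1, high on heterozygous 2 and knockout 2, so arrays of 1 label also differed in Xist. Epithelial markers were bright on every array, with Epcam between 174 and 295 and Krt8 between 382 and 601, as the labelled cell type requires. In these bulk samples, fewer cells of a type and less RNA per cell cannot be told apart.

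Every measured mitosis gene had its highest signal on the array labelled knockout 1. This held for 39 of 39 members, where 42.6% of all kept genes were highest on that array. The sum of their signals was 240, 391, 823 and 271. The arrays labelled knockout held the highest sum and one close to the lowest. After quantile normalization, which gives all arrays the same distribution, the count was again 39 of 39, against 35.6% of all genes.

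**Figure D1:**
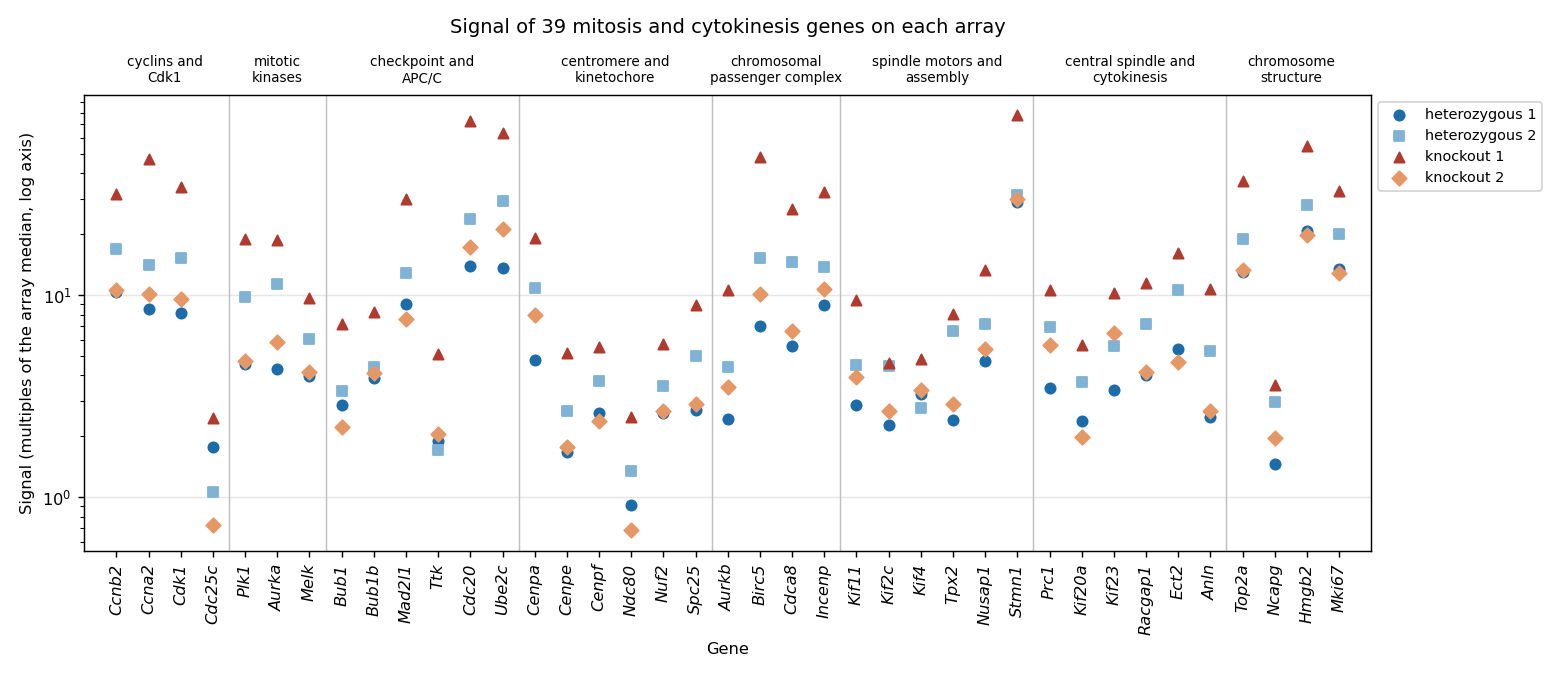
Signal of the 39 measured mitosis and cytokinesis genes on each of the 4 arrays, in multiples of the array median on a log axis, grouped by role. Each point is 1 array; the triangle of knockout 1 is the highest for every gene, and for Kif2c it lies beside heterozygous 2 (4.59 and 4.46).

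Between knockout 1 and heterozygous 1 the ratio ran from 1.39 for Cdc25c to 6.90 for Birc5, with a median of 3.03. It was at least 2-fold for 37 of 39 members, against 22.6% of all kept genes. After quantile normalization a 2-fold difference was counted for 24 of 39, on log2 values with a constant added. That count is thus on another scale than the 37, and its share over all genes was not taken. After quantile normalization the median log2 difference of knockout 1 from heterozygous 1 was 1.10 over the members and 0.026 over all kept genes. Knockout 1 was at least 2-fold above knockout 2 for 34 of 39 (20.2% of all genes), above heterozygous 2 for 14 of 39 (5.46%) and above every other array for 13 of 39 (3.44%). Heterozygous 1 was the lowest array for 28 of 39 (41.5% of all genes) and knockout 2 for 9 (31.1%). Heterozygous 2 came second for 35 of 39 (42% of all genes), and 27 of 39 had the order heterozygous 1, knockout 2, heterozygous 2, knockout 1 from low to high (19.8% of all genes). The place of heterozygous 2 depended on the scaling, since it lay above knockout 2 for 36 of 39 members as deposited (79.6% of all genes) and for 24 of 39 after quantile normalization. Above heterozygous 1 it lay for 36 of 39 (79.7% of all genes), and for 29 of 39 after quantile normalization. The median log2 difference of heterozygous 2 from heterozygous 1 was then 0.32 over the members and 0.030 over all kept genes. Shares over all genes were also not taken for these counts of heterozygous 2 after quantile normalization, 24 and 29. Knockout 2 and heterozygous 1 were close, with a median ratio of 1.07 between them, and knockout 2 was the higher of the pair for 30 of 39 (53.8% of all genes).

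Among the cyclins, Cdk1 and their activator, Ccna2, the A-type cyclin of S phase and G2, had 8.55, 14.1, 46.9 and 10.1. Cdk1, the kinase that drives entry into mitosis, had 8.16, 15.3, 34.4 and 9.59, and Ccnb2, a B-type cyclin, had 10.4, 16.9, 31.6 and 10.5. All 3 were high on knockout 1, intermediate on heterozygous 2 and low on the other arrays, so the labelled groups overlapped. Cdc25c, the phosphatase that activates Cdk1, was dim at 1.77, 1.06, 2.47 and 0.727, and its second kept probe set was highest on heterozygous 2 (1.74, against 1.73 on knockout 1).

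Of the mitotic kinases, Aurka, which acts at centrosomes and spindle poles, had 4.29, 11.3, 18.6 and 5.83. Plk1, which acts in mitotic entry, spindle formation and cytokinesis, had 4.53, 9.83, 18.9 and 4.74, and Melk, a kinase found in proliferating cells, had 3.99, 6.07, 9.63 and 4.14. On heterozygous 2, Aurka reached 2.64 times and Plk1 2.17 times the value of heterozygous 1, while the median kept gene reached 1.39 times.

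The spindle checkpoint genes and the activators of the anaphase promoting complex had a median ratio of knockout 1 to heterozygous 1 of 3.01. Cdc20, the activator of the anaphase promoting complex, had 13.9, 23.9, 72.2 and 17.3, and Ube2c, the ubiquitin-conjugating enzyme of that complex, had 13.6, 29.3, 63.2 and 21.2. The checkpoint protein gene Mad2l1 had 8.98, 12.9, 29.7 and 7.58. On knockout 1, Cdc20 and Ube2c thus stood apart from 3 lower arrays. The checkpoint kinase genes showed the same high array, with Bub1 at 2.85, 3.33, 7.23 and 2.21 and Bub1b at 3.88, 4.43, 8.24 and 4.10. Ttk, the kinase Mps1 at the head of the checkpoint, had 1.90, 1.70, 5.13 and 2.06, and both arrays labelled knockout lay above both labelled heterozygous, by a narrow margin for knockout 2.

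Centromere and kinetochore genes were dimmer, and their ratio of knockout 1 to heterozygous 1 had a median of 2.92. Cenpa, the histone H3 variant that marks centromeres, had 4.77, 10.8, 19.2 and 7.95. Spc25, of the Ndc80 complex that binds microtubules, had 2.70, 4.99, 8.90 and 2.89, and its partners Nuf2 and Ndc80 had 2.60, 3.54, 5.73 and 2.68, and 0.908, 1.34, 2.49 and 0.686. Cenpe, a kinetochore motor, had 1.67, 2.68, 5.16 and 1.77, and Cenpf, a large kinetochore protein, had 2.61, 3.77, 5.54 and 2.38. Knockout 1 was highest and heterozygous 2 second for each of the 6, so the labelled groups overlapped.

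The chromosomal passenger complex had the highest median ratio of knockout 1 to heterozygous 1 among the 8 roles, 4.57. It corrects faulty attachments and later directs cytokinesis. Birc5 (survivin), which targets the complex to centromeres, had 7.02, 15.3, 48.4 and 10.1, and Aurkb, its kinase, had 2.43, 4.39, 10.5 and 3.51. Cdca8 (borealin) had 5.57, 14.6, 26.8 and 6.65, and Incenp, the scaffold, had 8.96, 13.7, 32.2 and 10.7. By the chosen probe sets, all 4 subunits were lowest on heterozygous 1, with ratios between 3.59 and 6.90. Of the further kept probe sets, both of Cdca8 and 1 of Incenp were also lowest there. That of Aurkb and another of Incenp were lowest on knockout 2 (2.195 and 1.195), and the last of Incenp on heterozygous 2 (0.692).

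**Figure D2:**
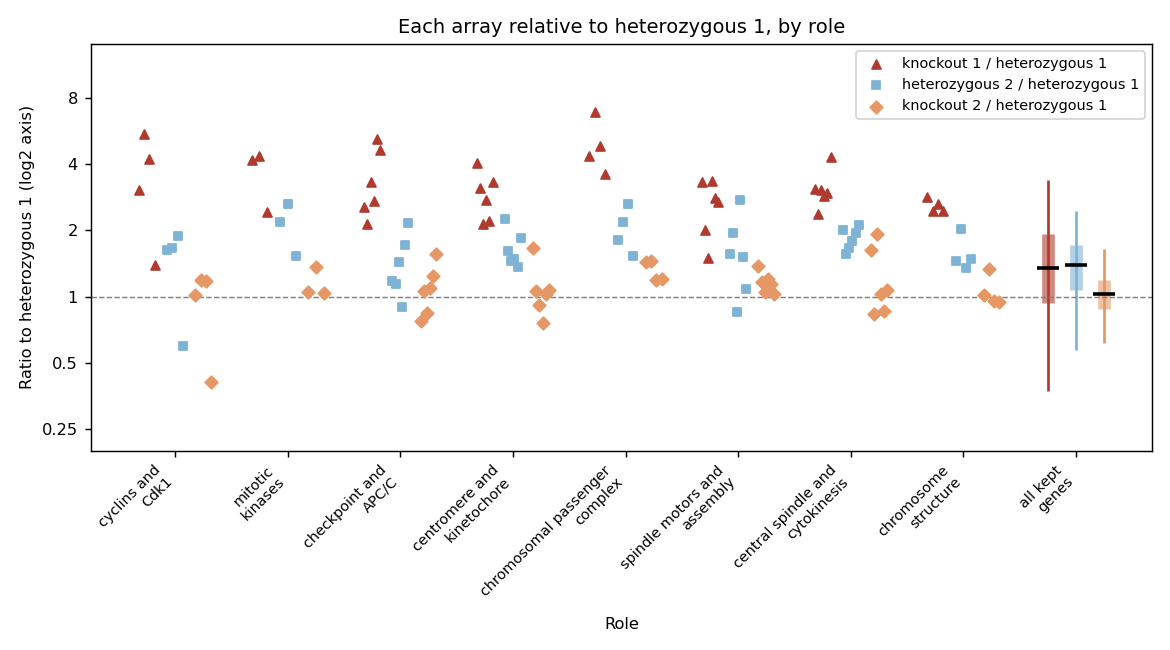
Ratio of each array to the array labelled heterozygous 1, on a log2 axis, for the 39 genes by role; each point is 1 gene. At the right, bars give the 5th to 95th (thin) and 25th to 75th (thick) percentiles and the median (black) over 11326 kept genes; for knockout 1 that median was 1.35, and every member lay above it.

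Spindle genes did not all share one profile. Stmn1, which destabilises microtubules, had 28.9, 31.4, 77.5 and 29.7, so that 3 arrays lay together and 1 stood apart. Tpx2, a spindle assembly factor, had 2.41, 6.62, 8.04 and 2.90, and Kif2c, a microtubule-depolymerising kinesin, had 2.28, 4.46, 4.59 and 2.66, and for these heterozygous 2 was near knockout 1. The bipolar spindle motor Kif11 had 2.86, 4.48, 9.43 and 3.91, and the microtubule-bundling Nusap1 had 4.73, 7.15, 13.3 and 5.37. Kif4, a chromosome-arm kinesin, had 3.23, 2.75, 4.84 and 3.38, and both knockout arrays lay above both heterozygous ones, narrowly for knockout 2.

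In the central spindle and cytokinesis group, Ect2, which activates RhoA at the division plane, had 5.42, 10.6, 16.1 and 4.64, lowest on knockout 2. Racgap1, which recruits Ect2 as a subunit of centralspindlin, had 4.02, 7.16, 11.5 and 4.13, and the other centralspindlin subunit, the kinesin Kif23, had 3.37, 5.59, 10.2 and 6.48. Kif23 was the only member of this role whose labelled groups did not overlap by the chosen probe set. They did overlap in its further kept probe set, at 0.774, 1.16, 2.45 and 0.983. Prc1, which bundles antiparallel microtubules, had 3.46, 6.94, 10.6 and 5.65. The kinesin Kif20a had 2.38, 3.71, 5.67 and 1.99, and Anln, which ties actin and septins at the cleavage furrow, had 2.50, 5.28, 10.7 and 2.68.

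The chromosome structure genes had the lowest median ratio of knockout 1 to heterozygous 1 of the 8 roles, 2.55. Hmgb2, a chromatin protein, had 20.8, 28.001, 54.9 and 19.8, and Top2a, the topoisomerase that untangles sister DNA, had 13.0, 18.8, 36.5 and 13.2. Mki67, the proliferation antigen Ki-67 that coats mitotic chromosomes, had 13.5, 20.0, 32.9 and 12.8, and the condensin gene Ncapg had 1.46, 2.95, 3.59 and 1.95. Heterozygous 1 and knockout 2 were close for the first 3 of these, with ratios of knockout 2 to heterozygous 1 of 0.952 for Hmgb2 and 0.947 for Mki67.

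Most members were seen by more than 1 probe set. Of the 30 further kept probe sets of members, 23 were highest on knockout 1, and among the 14 with a mean of at least 2 there were 13, the exception being a Top2a probe set at 1.44, 2.13, 2.27 and 2.52. For 15 of 22 members with several kept probe sets, all of them were highest on knockout 1. The chosen probe set of 6 members (Cdc25c, Cdc20, Aurkb, Incenp, Kif2c and Hmgb2) was of the x type, whose probes can bind related sequences, and of 3 (Cdca8, Stmn1 and Prc1) of the s type, shared by several transcripts.

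The groups were then compared, by label only. Under each label the Ap1m2 signal was high in one array and low in the other. Whether these genes differed with loss of AP-1B therefore could not be tested this way. By limma with Benjamini-Hochberg adjustment over 22519 probe sets, 0 of 39 members passed the threshold of 0.05 in either direction, against 0% of all probe sets, and 0 had an unadjusted p under 0.05, against 0.298% of probe sets higher and 0.457% lower. The lowest unadjusted p by limma among them was 0.112, for Kif23. That p by limma was 0.0310 after quantile normalization, 0.0370 after median centring and 0.0291 after centring on constitutive genes. In each, 1 of 39 members was under 0.05, against 0.333%, 0.226% and 0.431% of all probe sets under 0.05 and higher. With an array left out, 1 label holds a lone array without a spread of its own. The p-values of those fits are therefore not given for the members. The log2 difference, knockout minus heterozygous on the scale log2(value + 0.321), was above 0 for 39 of 39 members (50.5% of all kept genes), with a median of 0.47 against 0.0040 over all kept genes. For Cdc25c, at 0.0080, the sign turned with a pseudocount of 0.1, quantile normalization or median centring. By the chosen probe sets, the labelled groups did not overlap, with both knockout arrays higher, for 3 of 39 members (Ttk, Kif4 and Kif23), against 5.51% of all genes.

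For Birc5 the heterozygous mean was 11.1 ± 5.82 and the knockout mean 29.3 ± 27.0 (SD, n = 2 each), with a log2 difference of 1.08 and a standard error of 0.73 (limma, adjusted p = 0.99987). Ccna2 had 11.3 ± 3.95 and 28.5 ± 26.0, a difference of 0.97 with a standard error of 0.71, and Cdc20 had 18.9 ± 7.04 and 44.8 ± 38.8, a difference of 0.95 with a standard error of 0.70. For each, the SD of the knockout arrays was close to their mean. The adjusted p by limma was 0.99987 for each of these and of those that follow. Kif23 (0.86, standard error 0.50), Aurkb (0.84, 0.56), Ttk (0.77, 0.48), Cenpa (0.76, 0.61), Kif11 (0.72, 0.52), Stmn1 (0.67, 0.60), Aurka (0.56, 0.65), Hmgb2 (0.45, 0.62) and Ect2 (0.19, 0.63) completed the members named by rule. No member passed the test against the spread within the labels.

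The sign of the median group difference rested on 1 array. Without the array labelled knockout 1 the median log2 difference over the 39 members was -0.23, and 31 of 39 were below 0. Without knockout 2 it was 1.18 (39 of 39 above 0), without heterozygous 2 it was 0.77 and without heterozygous 1 it was 0.19 (29 of 39 above 0). The median over all kept probe sets went to -0.17, 0.18, 0.20 and -0.20 in the same order, so part of each shift was shared by the whole array. The difference was above 0 in all 4 of these fits for 8 of 39 members, from 0.084 (Ube2c without knockout 1) upwards. They were Ttk, Ube2c, Cenpa, Aurkb, Kif11, Kif4, Prc1 and Kif23, by their chosen probe sets, and the share over all genes was not taken. Further probe sets of Aurkb and Kif11 were lowest on knockout 2 (2.195 and 2.373, against 2.533 and 3.251 on heterozygous 1). Another of Kif11 and a further one of Cenpa had both knockout arrays above both heterozygous ones. Those of Prc1 and Kif23 had knockout 2 between the heterozygous arrays.

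**Figure D3:**
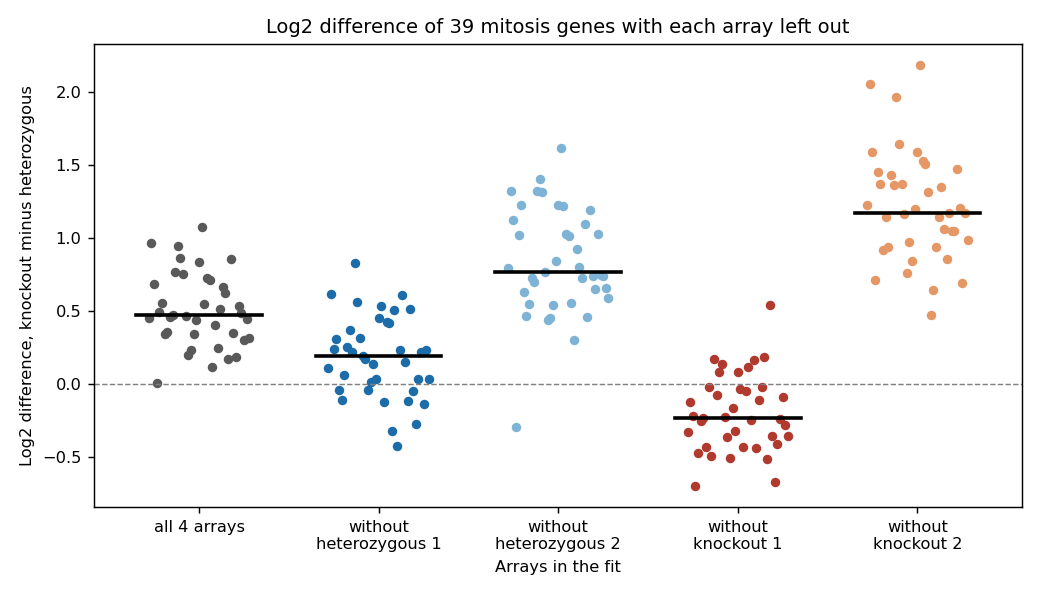
Log2 difference, knockout minus heterozygous by label, of the 39 genes with all 4 arrays and with each array left out; each point is 1 gene and the black line is the median. The median was 0.47 with all arrays and -0.23 without knockout 1.

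Other genes of the cell cycle were taken from lists, and 0 genes in any of them passed the adjusted threshold by limma. Among 74 other mitosis genes kept, of 77 with a probe set, 65 were highest on knockout 1 (42.6% of all kept genes). Their median ratio of knockout 1 to heterozygous 1 was 2.70, beside 3.03 for the members. Of the brightest, Smc4, a condensin subunit, had 31.0, 51.1, 66.2 and 25.4, and Bub3, a checkpoint protein, had 27.5, 41.3, 57.6 and 27.2. Pttg1, securin, stood close to level at 48.0, 52.1, 57.6 and 44.0, and the cohesin subunit gene Rad21 was highest on heterozygous 2, at 41.9, 56.7, 49.3 and 44.9. Only Troap had an unadjusted p under 0.05 by limma (0.0129) among these.

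DNA replication genes, which act in S phase, were highest on knockout 1 for 43 of 43 kept (42.6% of all kept genes). Their median ratio to heterozygous 1 was 2.49. Pcna, the replication clamp, had 74.0, 121, 197 and 70.4, and the helicase subunit gene Mcm7 had 25.1, 33.4, 74.1 and 25.1. The G1 cyclins and kinases were highest there for 11 of 11, with Ccnd2 at 36.1, 48.8, 131 and 37.5. After quantile normalization this held for 7 of 11 (35.6% of all kept genes). Of a list of subunits and cofactors of the anaphase promoting complex, which Cdc20 and Ube2c serve, 11 of 14 were highest on knockout 1 (42.6% of all kept genes). Their median ratio was 1.89. Anapc5 had 35.8, 46.3, 76.9 and 37.9, and Anapc13, the brightest, was highest on heterozygous 2, at 46.8, 58.2, 51.0 and 50.3.

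Regulators of the mitotic programme were mixed, and 11 of 22 measured were highest on knockout 1, near the share over all kept genes (42.6%). Of the brightest, Tfdp1, the dimer partner of E2F proteins, had 11.3, 20.0, 38.8 and 13.7, and the NF-Y subunit genes Nfyb and Nfyc had 8.67, 10.3, 19.0 and 9.45, and 20.2, 21.7, 26.3 and 16.7. Rb1, the retinoblastoma protein gene, was lowest on knockout 1, at 30.5, 35.6, 22.1 and 28.8. Others are named after their values were seen. Mybl2 (B-Myb), which joins MuvB to activate CHR promoters, had 1.10, 2.46, 4.87 and 1.55, and Foxm1, another activator of G2 genes, was highest on heterozygous 1, at 3.49, 2.42, 2.95 and 1.81. E2f8, an E2F-family repressor, had 1.89, 3.83, 12.1 and 4.65, and was the 1 regulator with an unadjusted p under 0.05 by limma (0.0271). The CDK inhibitors were highest on knockout 1 for 0 of 6, with Cdkn1a (p21) at 62.5, 54.7, 60.9 and 61.3 and Cdkn1b (p27) at 6.85, 7.35, 7.12 and 5.73.

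**Figure D4:**
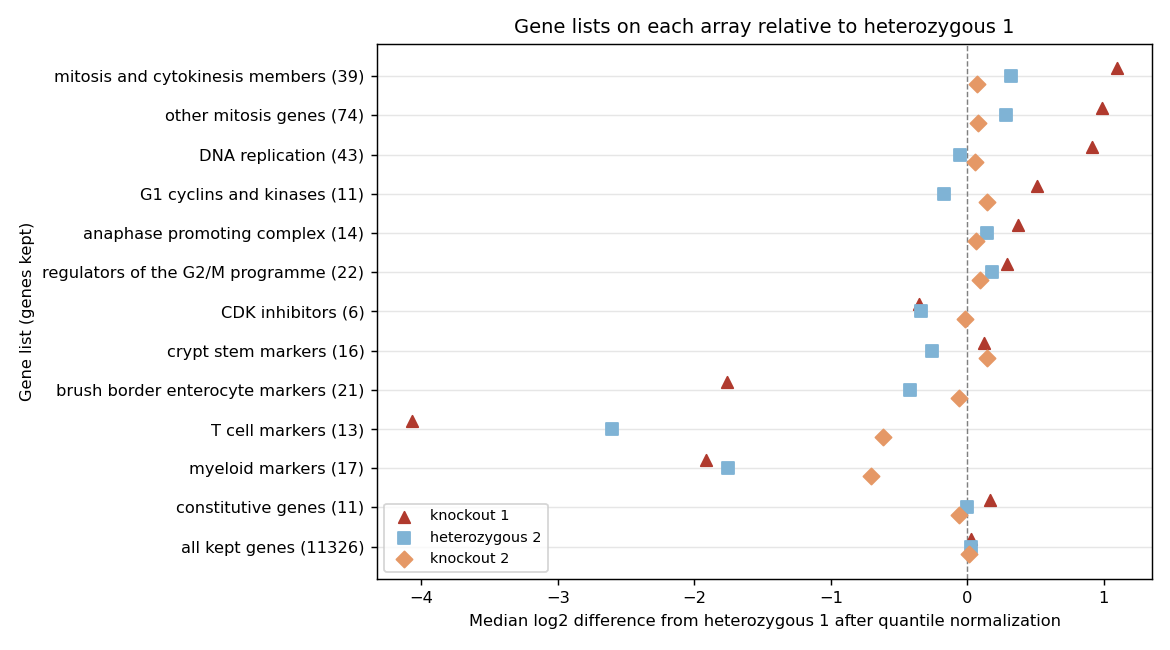
Median log2 difference of each array from the array labelled heterozygous 1 after quantile normalization, for the mitosis genes and other gene lists, with the number of genes kept. Knockout 1 lay at 1.10 for the mitosis genes and at -4.07 for T cell markers, and all arrays lay near 0 for all kept genes.

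Markers of other cells differed across the same arrays. Brush border enterocyte genes, of cells that have left the cycle, were lowest on knockout 1 for 14 of 21 (20.7% of all kept genes were lowest there), and their sum was 6243, 5601, 4710 and 5181. The brightest of them, Fabp1, was highest there, at 707, 770, 910 and 582, and Apoa1 had 782, 733, 758 and 633. T cell markers were lowest on knockout 1 for 13 of 13 kept, with a sum of 511, 107, 16.4 and 319, of which Gzma, a granzyme, held 244, 53.8, 5.79 and 149. Of their defining genes, Cd3e was at 0.211, Cd3d at 0.587 and Cd3g at 0.700 there, all under the array median. Myeloid markers were lowest on knockout 1 for 12 of 17, with a sum of 258, 163, 113 and 171.

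Crypt stem cell markers were mixed. They were highest on knockout 1 for 8 of 16, near the share over all kept genes (42.6%), and their sum was 346, 370, 425 and 398. Olfm4, the brightest, had 122, 88.6, 106 and 117, and Lgr5, the receptor that marks crypt base stem cells, had 3.65, 1.78, 1.64 and 4.05, so neither was highest on knockout 1. The next brightest, Hopx and Prom1, had 91.9, 100, 94.0 and 127, and 37.3, 67.2, 64.7 and 44.6, and neither was highest on knockout 1. Slc12a2, an ion cotransporter found in crypt cells, followed in brightness and was highest there, with 28.4, 37.6, 54.7 and 28.6. B and plasma cell markers summed to 771, 457, 505 and 398, of which Igha held 413, 204, 237 and 199, and 4 of 13 kept were highest on knockout 1. Stromal and muscle markers summed to 30.8, 24.2, 34.2 and 30.9. Of 12 kept, 5 had both knockout arrays above both heterozygous ones (5.51% of all genes) and 1 had both below (10.9%). The brightest, Acta2, was among the 5, at 5.91, 6.39, 9.66 and 10.1. The part of cell composition, of Ap1m2 itself or of the array scaling in the level of the mitosis genes was not tested.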

How the data were processed

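Total RNA of small intestinal epithelial cells was measured on 4 one-colour arrays, 2 per labelled genotype. The deposited table gives each array's intensity for every probe set, unlogged, made with MAS5 per the submitters' processing notes (version not given in the sources used here). Each array has a median near 1, a rescaling seen in the values and not stated.

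Of 45037 probe sets, 34945 were named for 1 gene by the platform annotation, 932 for several and 9160 for none. Values were transformed as log2(value + 0.321), the 25th percentile of all values, and probe sets with a mean over the 4 arrays of at least 0.983 were kept (22519). Fold differences on that scale understate those of dim probe sets. Ratios in the text are of untransformed values, but the 2-fold count after quantile normalization was made on that scale. The comparison by label used limma 3.58.1 under R 4.3.3 (lmFit, then eBayes with trend), with Benjamini-Hochberg adjustment. With 2 arrays a group, exact permutation gives p = 0.333 at the lowest and was not used. The fit was tested on simulated data.

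Full statistics are given for the brightest member of each of 8 roles and the 6 members with the smallest p; other lists give counts and bright members, and any other gene is said to be named after its values were seen or defines a cell type. Members, lists and roles were chosen with earlier results of these data known. Alternatives varied the pseudocount, filter, scaling, variance model, pairing, probe set rule and arrays. The number of arrays limits the precision, and no detection calls were used here.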

Additional observations from a re-analysis of the deposited data

How the results depend on the processing

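Of the probe sets, 0 passed in either direction under other pseudocounts, no filter, other scalings, no trend, a robust fit or a threshold of 0.10. With only the brightest 25% tested, 1 was lower. With each array left out in turn, 0 to 56 were higher and 0 to 184 lower, the most without knockout 2 (56 and 184), then without knockout 1 (17 and 7). No member was among them; a lone array was assumed to vary like the other group. The replicate number as a block (replicate block) gave 0 in both directions and a median of 0.47. Same-numbered arrays deviated in opposite ways (correlation -0.511 over kept probe sets). A crossed block, added after seeing the data, put heterozygous 1 with knockout 2 and heterozygous 2 with knockout 1. These are the arrays of high and of low Ap1m2 signal. It also gave 0 and 0, with 11 members under an unadjusted p of 0.05 by limma and higher (2.41% of all probe sets). Its pairs were arrays already seen to be alike in these values, so a smaller spread was built in. No conclusion is drawn from the 11.

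The median log2 difference of the members lay between 0.45 and 0.55 under other pseudocounts, filters, scalings and probe set rules, and between -0.23 (without knockout 1) and 1.18 (without knockout 2) with an array left out. It turned sign without knockout 1, as did 7 named members. With arrays left out, Ccna2 ranged from -0.12 to 2.06, Aurka from -0.25 to 1.37 (-0.11 without heterozygous 1), Cdc20 from -0.075 to 1.97, Birc5 from -0.030 to 2.19, Stmn1 from -0.018 to 1.35, Ect2 from -0.67 to 1.05 (-0.27 without heterozygous 1) and Hmgb2 from -0.28 to 1.18. These shifts follow from which arrays were averaged. The 39 members were highest on knockout 1 under other pseudocounts and scalings and with another array left out; without knockout 1 there is no such count.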
